A study of Mus musculus with 8 samples.

Results

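The data described here are those of 7 mature miRNAs of the miR-15/16 family and its X-chromosome branch in mouse bone marrow-derived macrophages (BMDMs). They are mmu-miR-15a-5p, mmu-miR-15b-5p, mmu-miR-16-5p, mmu-miR-195a-5p, mmu-miR-322-5p, mmu-miR-322-3p and mmu-miR-503-5p (written without the prefix mmu, for mouse, in most places). They were taken by name, and all 7 were listed in both deposited tables, out of 1055 mature miRNAs and 3506 features listed in either. The set was chosen by the measured fall of miR-503-5p after M-CSF withdrawal in these same data, where it was among the largest, so the change of miR-503-5p is given as a description without a test. The question was whether its cluster partner miR-322 and its family shared that fall.

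BMDMs were grown for 7 days from the marrow of 10-week-old male C57BL/6J mice in medium containing conditioned medium of L929 cells, the source of M-CSF. Control cells were left untreated, and the other cells were kept without M-CSF for 36 h, a treatment under which these cells undergo apoptosis. An Ion Proton run held 2 control and 2 withdrawal libraries, and a SOLiD run held 1 library per condition from total RNA and 1 per condition from RNA cut from a gel at 25 to 40 nt. The Ion Proton libraries are treated as total RNA, as the methods give them, although the extract is given as small RNA in their labels. Methods call these replicates biological, without saying whether they came from separate mice or cultures. In such bulk RNA, fewer cells of a kind and less RNA per cell cannot be told apart.

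Mature miRNAs are cut from hairpin precursors and guide Argonaute proteins to messenger RNAs, mostly through the seed, bases 2 to 8. The miR-15/16 family is known as a brake on the cell cycle that represses G1 cyclins and their kinases, and miR-15a and miR-16 also repress the survival factor Bcl2. Mouse miR-322 is the counterpart of human miR-424, which with miR-503 has been studied in the arrest and differentiation of myeloid cells. Hairpins transcribed together share a primary transcript, but each mature strand has its own processing and decay.

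The mature sequences are shown because seed and cluster define which members belong together (RefSeq, GRCm38.p6, 5′ to 3′, seed in capitals):
miR-15a-5p: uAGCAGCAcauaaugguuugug
miR-15b-5p: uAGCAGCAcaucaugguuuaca
miR-16-5p: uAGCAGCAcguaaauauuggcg
miR-195a-5p: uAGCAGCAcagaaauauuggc
miR-322-5p: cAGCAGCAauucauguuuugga
miR-503-5p: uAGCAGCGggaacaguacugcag
miR-322-3p: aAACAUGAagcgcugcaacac
miR-351-5p, a cluster neighbour: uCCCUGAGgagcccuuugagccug

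The seed AGCAGCA was shared by 5 members, and miR-503-5p differed from it at its last base (A8G against miR-15a-5p, counted from the 5′ end). The sequences of miR-16-5p and miR-195a-5p were identical at 19 of 21 positions, with G10A and U11G between them, so that reads of the far rarer miR-195a-5p are uncertain. By contrast, miR-322-5p and miR-503-5p were identical at 11 of 22 positions. miR-322-3p, from the opposite arm of the miR-322 hairpin, has another seed and belongs to the set by its locus only. miR-351-5p is no family member and carries the seed of the miR-125 family.

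The members come from 4 loci (GRCm38). Mir15a (chr14:61632027-61632110) and Mir16-1 (chr14:61631880-61631972) lie 54 bases apart on the minus strand within the non-coding gene Dleu2, in an intron and in an exon respectively. Mir15b (chr3:69009772-69009835) and Mir16-2 (chr3:69009902-69009996) lie 66 bases apart on the plus strand in an intron of Smc4, which encodes a condensin subunit. The mature miR-16-5p made by Mir16-1 and by Mir16-2 is the same sequence, so its reads cannot be assigned to a locus. Mir195a (chr11:70235042-70235135) lies 241 bases from Mir497 on the plus strand. Mir322 (chrX:53054255-53054349) and Mir503 (chrX:53053984-53054054) lie on the minus strand, 200 bases apart, with Mir351 (chrX:53053255-53053353) 630 bases further on, and no gene other than a miRNA overlaps these 3 hairpins in the annotation. The miR-322 and miR-503 hairpins are shown with both mature arms in capitals, since both arms were measured:
Mir322: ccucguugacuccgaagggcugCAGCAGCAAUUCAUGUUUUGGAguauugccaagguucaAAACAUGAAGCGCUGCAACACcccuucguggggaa
Mir503: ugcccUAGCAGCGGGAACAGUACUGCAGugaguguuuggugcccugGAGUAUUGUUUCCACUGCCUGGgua

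The members are 21 to 23 bases long, below the range of the gel slice, and the sliced RNA had RNA integrity numbers (RIN) of 2.7 and 2.6. The RIN was 8.4 in the control and 7.5 in the withdrawal sample of SOLiD total RNA, and 8.4 to 8.9 in the Ion Proton samples, and its part in the SOLiD falls was not tested. The libraries held from 4039837 to 12178454 reads on listed features. Values are counts per 1000000 reads on listed features (CPM) for Ion Proton and reads per 1000000 (RPM) for SOLiD, and 95% Wilson intervals of single values cover counting error only. Mature miRNAs made up 39.99 and 41.2% of the reads in the Ion Proton controls against 29.5 and 29.9% after withdrawal. They fell from 82.0 to 41.1% in SOLiD total RNA and from 87.2 to 45.0% in the 25 to 40 nt RNA, so that a miRNA falling with all others is lower as a share of the library and not as a share of miRNA reads. All 7 myeloid marker miRNAs were above 0 in each library, with summed levels of 68504 and 74484 CPM in Ion Proton controls and 51460 and 58616 CPM after withdrawal, mostly miR-21a-5p. The sums went from 388908 to 145445 RPM in SOLiD total RNA and from 240861 to 100081 RPM in 25 to 40 nt RNA, while miR-155-5p went from 361 up to 575 RPM in total RNA. Of these, miR-142a-3p was at only 0.112 to 3.71 RPM in the SOLiD libraries, while its other arm was at 140 to 675 RPM. The summed markers of 8 other cell types lay between 0 and 23.3 CPM in the Ion Proton libraries. Of these markers, 0 of 3 muscle, 2 of 5 stromal and 1 of 2 endothelial ones were listed there, against 2, 5 and 2 for SOLiD. The muscle sum of 0 is therefore no measurement. Sums were higher in the SOLiD run, also for cell types with all their markers listed in both runs. The erythroid miR-451a, for example, was at 1.25 to 6.44 CPM in Ion Proton libraries but at 3227 and 2659 RPM in the SOLiD total RNA of control and withdrawal, and at 2394 and 3988 RPM in the 25 to 40 nt RNA.

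mmu-miR-503-5p was lower after M-CSF withdrawal in each of the 3 sets of libraries. In the Ion Proton run it was at 22.0 and 17.5 CPM in control cells and at 6.90 and 8.26 CPM after withdrawal, from 171, 126, 45 and 50 reads. The control and withdrawal libraries did not overlap. In SOLiD total RNA it went from 13.9 to 3.69 RPM and in 25 to 40 nt RNA from 6.85 to 2.48 RPM, the last from 10 reads. The log2 fold change was -1.33 (SE 0.21, edgeR) in the Ion Proton run and -1.40 (SE 0.27, limma) over the total RNA of both runs. The SOLiD log2 ratios were -1.91 (95% counting interval -2.43 to -1.38) in total RNA and -1.47 (-2.43 to -0.50) in 25 to 40 nt RNA, each from 1 library against 1. Among the 186 mature miRNAs with a mean of at least 10 CPM in the Ion Proton run, miR-503-5p had the largest fall, followed by its neighbour miR-351-5p at -1.18 and by miR-125a-3p at -1.14.

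**Figure D1:**
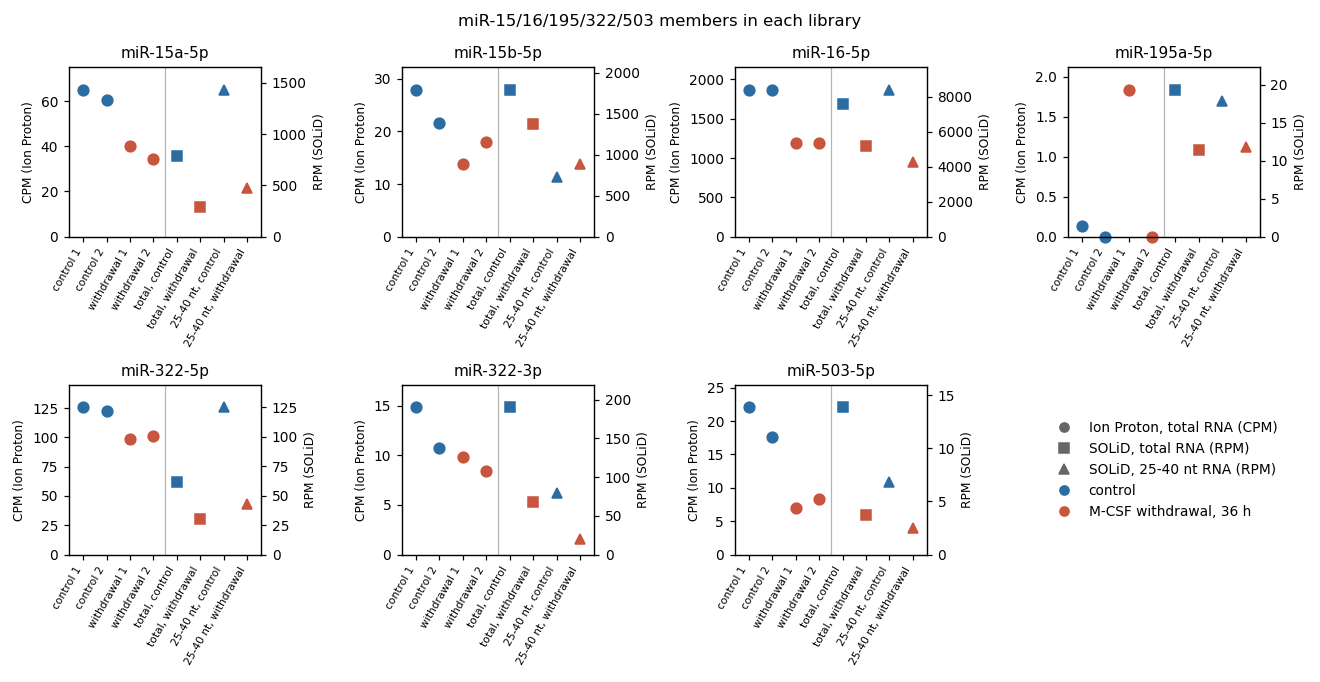
Level of each of the 7 miRNAs in each of the 8 libraries, as CPM on the left axis for Ion Proton libraries (circles) and as RPM on the right axis for SOLiD total RNA (squares) and SOLiD 25 to 40 nt RNA (triangles), control in blue and M-CSF withdrawal in red. Withdrawal libraries lie below the control libraries of the same set for miR-15a-5p, miR-16-5p, both arms of miR-322 and miR-503-5p, whereas miR-15b-5p went from 734 to 890 RPM in 25 to 40 nt RNA.

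The cluster partner mmu-miR-322-5p was also lower in each set. Its fall was smaller than that of miR-503-5p in the Ion Proton run and in SOLiD total RNA, but not in 25 to 40 nt RNA. It was at 126 and 123 CPM in control cells and at 98.3 and 101 CPM after withdrawal. These libraries did not overlap, with means of 124 ± 2.1 and 99.8 ± 2.1 CPM (SD, n = 2 each). The log2 fold change was -0.26 (SE 0.08), which did not pass the threshold of 0.05 in edgeR's quasi-likelihood test (adjusted p = 0.0942). It went from 61.2 to 29.9 RPM in SOLiD total RNA, a log2 ratio of -1.03 (95% counting interval -1.24 to -0.82), and in 25 to 40 nt RNA from 125 to 42.8 RPM, a log2 ratio of -1.54 (-1.77 to -1.31). Over the total RNA of both runs the log2 fold change was -0.54 (SE 0.22), also short of the threshold in limma (adjusted p = 0.144). In total RNA the fall rests on the scaling. With TMM factors from miRNA features the Ion Proton value was 0.051, and relative to miRNA reads the value of both runs was 0.075. The 25 to 40 nt pair was not rescaled. There the median log2 ratio of mature miRNAs with at least 10 RPM in both libraries was -0.82.

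The opposite arm, mmu-miR-322-3p, was at 14.8 and 10.7 CPM in Ion Proton control cells and at 9.81 and 8.43 CPM after withdrawal. From 189.9 RPM it went to 68.2 RPM in SOLiD total RNA and in 25 to 40 nt RNA from 79.1 to 20.1 RPM. Its log2 fold change was -0.43 (SE 0.23, edgeR adjusted p = 0.274) in the Ion Proton run and -0.78 (SE 0.31, limma adjusted p = 0.141) over both runs. Neither value passed the threshold.

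Which arm of the miR-322 hairpin gave more reads depended on the run. There were 8.48 and 11.4 reads of miR-322-5p per read of miR-322-3p in Ion Proton controls and 10.02 and 12.02 after withdrawal. In SOLiD total RNA there were 0.322 and 0.438, and in 25 to 40 nt RNA 1.58 and 2.14. The ratio was higher after withdrawal in both SOLiD pairs and overlapped between conditions in the Ion Proton run. Over the 3 control and 3 withdrawal libraries of total RNA, the log2 ratio of the arms (each value plus 1) was higher by 0.23 after withdrawal, with p = 0.333 in an exact two-sided permutation test within runs whose smallest possible p is 0.167 (0.444 adjusted over 4 ratios).

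Of 9 other mature miRNAs of the X-chromosome cluster, 7 were listed and all 7 reached the minimum of 5 summed counts. Of the 7, 2 were lower past the threshold of edgeR in the Ion Proton run, against 8.97% of all features tested and 13.3% of mature miRNAs. The same count over both runs was 2 of 7, against 5.62 and 9.33%. These were miR-351-5p and miR-542-3p in both fits. The remaining 5 had 2 to 44 summed reads in the Ion Proton controls.

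miR-351-5p, the most abundant of these neighbours, was at 425 and 440 CPM in Ion Proton control cells and at 193 and 176 CPM after withdrawal. Values went from 301 to 111 RPM in SOLiD total RNA and in 25 to 40 nt RNA from 462 to 112 RPM. Each withdrawal library was below the control libraries of its set. Its log2 fold change was -1.18 (SE 0.08, edgeR adjusted p = 0.00249) in the Ion Proton run and -1.30 (SE 0.16, limma adjusted p = 0.00742) over both runs. The call held in 11 of 11 Ion Proton alternatives and in 9 of 13 alternatives of both runs. Without 1 Ion Proton library the adjusted p over both runs was 0.0743 (control replicate 2 left out), 0.0744 (withdrawal replicate 1) and 0.0603 (withdrawal replicate 2), and relative to miRNA reads it was 0.0805. With any 1 Ion Proton library left out, the fit of both runs called only 0 to 4 features lower in all, so that such losses are not particular to any miRNA named here.

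miR-542-3p was at 13.8 and 12.5 CPM in Ion Proton control cells and at 6.29 and 6.11 CPM after withdrawal. It went from 17.3 to 2.87 RPM in SOLiD total RNA and from 11.7 to 3.47 RPM in 25 to 40 nt RNA. The log2 fold change was -1.03 (SE 0.17, edgeR adjusted p = 0.0158) in the Ion Proton run and -1.40 (SE 0.34, limma adjusted p = 0.0436) over both runs. Its call held in 6 of 11 Ion Proton alternatives and in 6 of 13 of both runs, with the adjusted p ranging from 0.00866 to 0.111 over the Ion Proton alternatives and from 0.0122 to 0.127 over those of both runs. Leaving out either Ion Proton withdrawal library ended it in both fits, with an Ion Proton adjusted p of 0.111 without replicate 1 and 0.108 without replicate 2, and so did leaving out either control library over both runs (0.106 without replicate 1 and 0.108 without replicate 2).

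**Figure D2:**
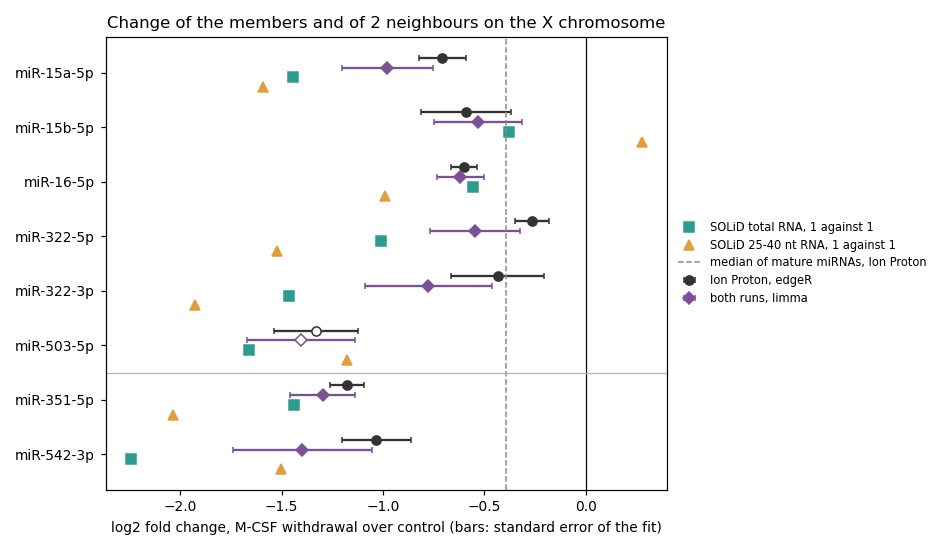
Log2 fold change of withdrawal over control for 6 members and 2 neighbours (below the line), from edgeR on the Ion Proton run (circles) and limma over both runs (diamonds) with standard errors, and as log2 ratios of RPM plus 1 for the unreplicated SOLiD pairs (squares, triangles). Open symbols mark miR-503-5p, which was not tested, and the dashed line is the Ion Proton median of mature miRNAs, -0.39. miR-503-5p, miR-351-5p and miR-542-3p lie between -1.03 and -1.33 in the Ion Proton run, and miR-322-5p lies at -0.26.

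Within the cluster, miR-351-5p fell relative to miR-322-5p. There were 3.38 and 3.59 reads of miR-351-5p per read of miR-322-5p in Ion Proton controls and 1.97 and 1.73 after withdrawal. The ratio was 4.92 and 3.70 in SOLiD total RNA and 3.71 and 2.62 in 25 to 40 nt RNA, in the order control and withdrawal. It was lower after withdrawal in each set. The log2 ratio over total RNA changed by -0.75 in the mean (exact two-sided permutation p = 0.167 for 3 control and 3 withdrawal libraries, the smallest possible, and 0.444 adjusted over 4 ratios). This ratio was chosen after its values were seen, and it does not depend on the scaling of the libraries.

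The ratio of miR-503-5p to miR-322-5p was 0.175 and 0.143 in Ion Proton controls and 0.0702 and 0.0816 after withdrawal. It was 0.227 and 0.124 in SOLiD total RNA. In 25 to 40 nt RNA it was 0.0549 in control and 0.0578 after withdrawal, so that in this pair the ratio was not lower after withdrawal. The ratio of miR-503-5p to miR-351-5p overlapped between the conditions in the Ion Proton run, at 0.0519 and 0.0399 in controls and at 0.0357 and 0.0470 after withdrawal. In SOLiD total RNA this ratio was lower after withdrawal, 0.0460 in control and 0.0334 after it. It was higher in 25 to 40 nt RNA, 0.0148 and 0.0221, from 61 and 10 reads of miR-503-5p.

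**Figure D3:**
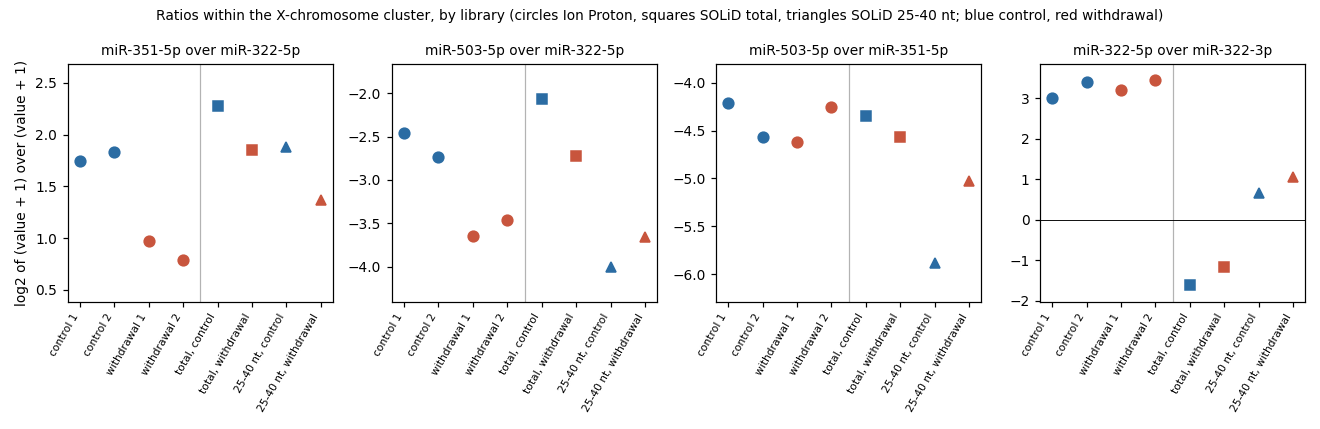
Log2 ratio of the values plus 1 for 4 pairs of miRNAs of the X-chromosome cluster in each library (circles Ion Proton, squares SOLiD total RNA, triangles SOLiD 25 to 40 nt RNA, blue control, red withdrawal), with axes that do not start at 0. The ratio of miR-351-5p to miR-322-5p was lower after withdrawal in each set, and miR-322-5p exceeded miR-322-3p in the Ion Proton run but not in SOLiD total RNA.

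mmu-miR-16-5p was by far the most abundant member and was lower after withdrawal in each set. It was at 1861 and 1872 CPM in Ion Proton control cells and at 1191 and 1187 CPM after withdrawal. It went from 7609 to 5170 RPM in SOLiD total RNA and from 8415 to 4244 RPM in 25 to 40 nt RNA. In the Ion Proton run the log2 fold change was -0.60 (SE 0.06, edgeR adjusted p = 0.00554), past the threshold in 11 of 11 alternatives, with the smallest change, -0.28, when miRNA features set the scaling. Over both runs it was -0.62 (SE 0.12, limma adjusted p = 0.0209), and relative to miRNA reads the value was 0.011 and the call was lost. The call was also lost when any 1 Ion Proton library was left out and the others kept (limma adjusted p from 0.0935 to 0.117), while the value stayed at -0.61.

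mmu-miR-15a-5p, which shares the Dleu2 locus with a copy of miR-16, was at 65.1 and 60.3 CPM in Ion Proton control cells and at 39.9 and 34.2 CPM after withdrawal. It went from 787 to 289 RPM in SOLiD total RNA and from 1436 to 476 RPM in 25 to 40 nt RNA. The groups did not overlap in the Ion Proton run. Its log2 fold change was -0.71 (SE 0.12, edgeR adjusted p = 0.0164) and, over both runs, -0.98 (SE 0.22, limma adjusted p = 0.0367). The first call was lost with miRNA scaling (edgeR adjusted p = 0.134). That call was also lost when either Ion Proton withdrawal library was left out, which left 1 in that group. The value was then -0.80 without withdrawal replicate 1 and -0.61 without withdrawal replicate 2. The call over both runs was lost when any 1 Ion Proton library was left out and the others kept (limma adjusted p from 0.103 to 0.122). It was also lost with edgeR on counts and recovered reads (adjusted p = 0.0599) and in limma relative to miRNA reads (adjusted p = 0.299).

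mmu-miR-15b-5p was at 28.0 and 21.6 CPM in Ion Proton control cells and at 13.8 and 18.0 CPM after withdrawal. Its log2 fold change was -0.59 (SE 0.22, edgeR adjusted p = 0.143), and over both runs -0.53 (SE 0.22, limma adjusted p = 0.144). Both missed the threshold. The estimates were close to those of miR-16-5p and their standard errors wider. In SOLiD total RNA it went from 1796 to 1381 RPM, a log2 ratio of -0.38 (95% counting interval -0.41 to -0.34), while in 25 to 40 nt RNA it rose from 734 to 890 RPM, by 0.28 (0.22 to 0.34).

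mmu-miR-195a-5p was near the limit of detection in the Ion Proton run, with 1 and 0 reads in control libraries and 12 and 0 after withdrawal. Only 1 library, withdrawal replicate 1, carried it past the minimum of 5 summed reads. The 95% Wilson upper limit of 0 reads was 0.535 CPM in control replicate 2 and 0.635 CPM in withdrawal replicate 2. The SOLiD values went from 19.4 to 11.4 RPM in total RNA and in 25 to 40 nt RNA from 17.8 to 11.9 RPM. Since the member was kept only through that library, no test is given for it. Its neighbour miR-497a-5p, which has the same seed, had 0 and 8 reads in the Ion Proton controls and 1 and 0 after withdrawal. It thus reached the minimum of 5 summed reads only through control replicate 2. In SOLiD it went from 1.39 to 1.72 RPM in total RNA and from 3.70 to 2.72 RPM in 25 to 40 nt RNA. Of 4 further miRNAs with this seed only miR-6353 was listed, in the SOLiD table, at 20.8 and 13.4 RPM in total RNA of control and withdrawal.

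Counting only the 6 members that did not define the set, of which miR-195a-5p was kept through a lone library, 2 were called lower by edgeR on Ion Proton counts, miR-15a-5p and miR-16-5p, against the 8.97% of features and 13.3% of mature miRNAs given above. Over both runs it was the same pair, against 5.62 and 9.33%. In 5 of the 6, both Ion Proton withdrawal libraries were below both controls, against 28.0% of all features and 40.2% of mature miRNAs. Leaving out miR-195a-5p, the median log2 fold change of the other 5 was -0.59 in the Ion Proton run, where that of 600 mature miRNAs was -0.39 and that of 2029 features 0.08. Over both runs these medians were -0.62, -0.44 (450 mature miRNAs) and 0.16 (1708 features). In SOLiD total RNA 3 of the 6 were at least 2-fold lower in RPM plus 1 (miR-15a-5p and both arms of miR-322), against 9.27% of all features and 21.9% of mature miRNAs, and in 25 to 40 nt RNA 3 of the 6, against 9.62 and 23.4%. The median mature miRNA was thus also below 0 per library read, in each run.

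**Figure D4:**
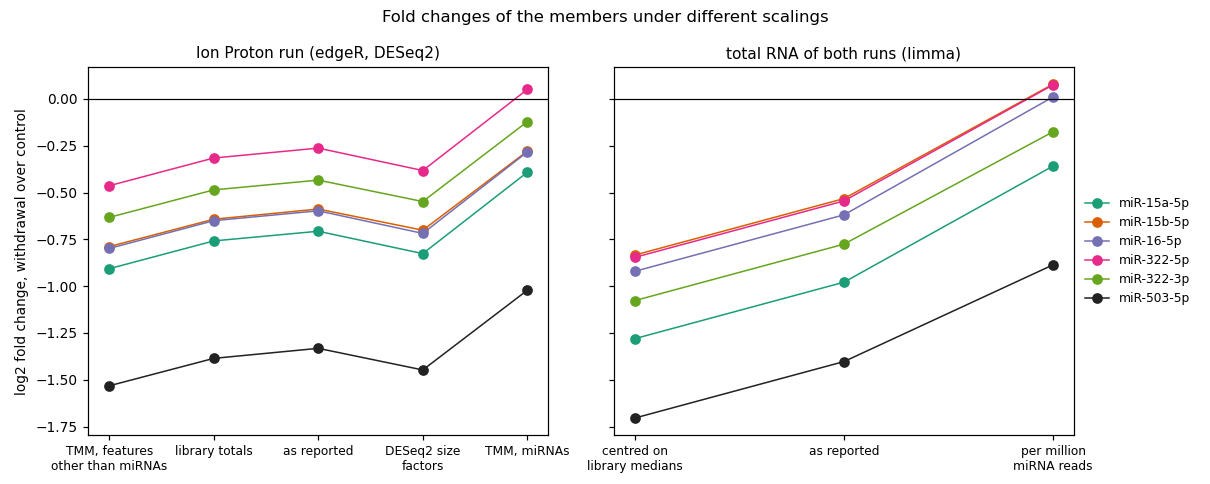
Log2 fold change of 6 members under each scaling, for the Ion Proton run (left) and the total RNA of both runs (right), with 0 as a horizontal line. miR-503-5p stays lowest, between -1.53 and -1.02 on the left and at -0.89 relative to miRNA reads on the right, whereas miR-322-5p crosses 0 when miRNAs set the scale and miR-16-5p and miR-15b-5p reach 0.011 and 0.079 relative to miRNA reads.

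The family sum is the summed level of the 6 members with an AGCAGC start at base 2. It leaves out miR-497a-5p and miR-6353, given above as sharing the seed. In Ion Proton controls it was 2101 and 2094 CPM, and after withdrawal 1352 and 1349 CPM. It was 10286 and 6885 RPM in SOLiD total RNA and 10734 and 5667 RPM in 25 to 40 nt RNA. As a share of mature miRNA reads it went from 0.525 and 0.508% to 0.458 and 0.451% in the Ion Proton run, but from 1.25 to 1.67% in SOLiD total RNA and from 1.23 to 1.26% in 25 to 40 nt RNA. The direction of this share thus differed between the runs. miR-16-5p made up 88.0 to 89.4% of the family sum in the Ion Proton run and 74.0 to 78.4% in the SOLiD run.

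By level, in the Ion Proton controls, miR-16-5p was followed by miR-322-5p, miR-15a-5p, miR-15b-5p, miR-503-5p, miR-322-3p and miR-195a-5p. The values of miR-15b-5p (24.8 ± 4.5 CPM) and miR-503-5p (19.8 ± 3.2 CPM, SD, n = 2 each) overlapped between libraries. Within each control library miR-15b-5p had more reads, 217 against 171 and 155 against 126, and this order was not tested. After withdrawal the mean of miR-503-5p (7.58 ± 0.96 CPM) was below that of miR-322-3p (9.12 ± 0.98 CPM). The reads were 45 against 64 in replicate 1 and nearly equal, 50 against 51, in replicate 2. Among 737 listed mature miRNAs, miR-503-5p held rank 155 and 156 in the controls and none better than 192 after withdrawal, whereas miR-16-5p moved from rank 29 to 32 and miR-322-5p stayed between 91 and 94. In the SOLiD total RNA control the order was another, with miR-15b-5p and miR-15a-5p above both arms of miR-322. The library kits differ between the runs, and their part in this order and in the miR-322 arm ratio was not tested.

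The other arms of the members' hairpins had fewer reads than the members in the Ion Proton run, except that of miR-195a. By edgeR none of the 6 passed the threshold, against 24.6% of all features in either direction, and 3 had an unadjusted p under 0.05, against 35.6%. Over both runs in limma none passed, against 17.2%, and 1 had an unadjusted p under 0.05, against 34.4%. The 3 were miR-15b-3p and miR-503-3p, which were lower, and miR-195a-3p, which was higher, with 0 and 0 reads in controls and 4 and 10 after withdrawal. miR-503-3p, from the miR-503 hairpin, had 8 and 29 reads in control libraries and 0 and 1 after withdrawal. DESeq2 called 1 of the 6, miR-503-3p, against 33.6% of features with an adjusted p. Both miR-503-3p and miR-195a-3p reached the minimum of 5 reads only through the condition in which they were high, so these calls support nothing. In SOLiD it was more abundant than miR-503-5p, at 33.4 and 25.4 RPM in total RNA and at 95.6 and 35.4 RPM in 25 to 40 nt RNA, control and withdrawal. miR-15b-3p was at 4.64 and 3.20 CPM in Ion Proton controls and at 1.99 and 1.49 CPM after withdrawal, but went from 637 up to 861 RPM in SOLiD total RNA. miR-16-1-3p overlapped between conditions in the Ion Proton run (7.09 and 8.63 against 5.98 and 11.6 CPM).

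Features annotated as the hairpins themselves had few reads. Of 5 listed in the Ion Proton table none passed the threshold by edgeR, and 2 had an unadjusted p under 0.05, against the shares of 24.6 and 35.6% given above. The 2 were Mir16-1, which was lower, and Mir16-2, which was higher, with 2 reads in the controls and 19 after withdrawal. The Mir322 feature also had more reads after withdrawal, 6 against 1. Mir16-2 and Mir322 reached the minimum of 5 summed counts only through the withdrawal libraries, so their Ion Proton values support nothing. In SOLiD total RNA both were lower after withdrawal, Mir16-2 from 4.16 to 0.739 RPM and Mir322 from 1.91 to 0.493 RPM. In 25 to 40 nt RNA Mir16-2 went from 1.57 to 0.495 RPM and Mir322 from 0 to 0.743 RPM. Mir16-1 was called by DESeq2, which gave 3 of the 5 no adjusted p, and by limma over both runs. The Mir16-1 feature was at 11.1 and 12.9 CPM in control cells and at 3.07 and 5.78 CPM after withdrawal, and at 16.1 and 6.65 RPM in SOLiD total RNA. Its log2 fold change was -1.39 (SE 0.35, edgeR adjusted p = 0.0509) in the Ion Proton run and -1.26 (SE 0.30, limma adjusted p = 0.0409) over both runs, past the threshold in 7 of 13 alternatives of the latter. How reads that overlap both a hairpin and a mature feature were assigned is not given in the sources used here.

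The miRNAs whose pattern lay nearest to that of miR-503-5p were sought among 137 miRNAs with a mean of at least 10 CPM or RPM in each set, by the Euclidean distance of centred log2 values over the 8 libraries. They were miR-99a-5p (distance 0.53), miR-125a-3p (0.54) and miR-125a-5p (0.56), with a median of 1.19. miR-99a-5p was at 202 and 228 CPM in Ion Proton controls and at 108 and 120 CPM after withdrawal. The partner miR-322-5p was at a distance of 1.12, near that median. Among the other members miR-15a-5p was at 0.71, miR-16-5p and miR-322-3p at 1.05, miR-15b-5p at 1.53 and the rare miR-195a-5p at 2.43. miR-503-5p itself was below the minimum mean in both SOLiD sets. Adding 1 to each value, as was done here, made its SOLiD log2 ratios smaller, -1.66 in total RNA and -1.17 in 25 to 40 nt RNA. The nearest to miR-16-5p were miR-99b-5p (0.08), miR-181a-5p (0.14) and miR-425-5p (0.16), with a median of 0.70. These distances are descriptions over libraries that share their depth and composition.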

How the data were processed

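Ion Proton reads were trimmed by the authors with cutadapt 1.2.1 (minimum 15 bases), aligned to mm10 with bowtie2 2.2.4 (up to 10 places each) and deposited as raw counts per feature (miRBase 21, tRNAs, Ensembl 75). For the SOLiD run, the authors used LifeScope 2.5.1 and deposited RPM. All values were whole multiples of 1 read within 0.01 (100% whole), so reads were recovered. Labels and methods differ on RNA extraction and input.

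The members and lists were chosen with earlier results of these data known. Named miRNAs were the members, the other arms, listed miRNAs sharing their seed, cluster neighbours, hairpin features and the 3 miRNAs nearest to miR-503-5p and to miR-16-5p. Coordinates in the tables matched GRCm38 for 605 of 612 and 718 of 727 mature miRNAs. The fits used features with at least 5 summed counts (in each run). edgeR 4.0.16 (TMM, quasi-likelihood) was run on the Ion Proton counts, and limma 3.58.1 on log2 of CPM or RPM plus 1 over both runs (treatment and run, trended empirical Bayes), in R 4.3.3, with Benjamini-Hochberg adjustment over all features and a threshold of 0.05. Alternatives were DESeq2 1.42.0, other scalings, minimums and pseudocounts, a replicate block and leaving out each library. The fits were tested on simulated data. Python 3.11.15, pandas 2.3.3, numpy 2.4.6, scipy 1.17.1 and matplotlib 3.10.9 were used. Replicates were checked and differed by more than sampling noise (chi-square per degree of freedom 20.3 and 19.1).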

Additional observations from a re-analysis of the deposited data

Results flagged for a closer look

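For 3 mature strands of the Smc4 locus, the SOLiD pairs moved in opposite directions in total RNA and in 25 to 40 nt RNA, with counting intervals that left out 0 in both. The difference was not tested, since each pair is 1 library against 1. The log2 ratio of withdrawal over control was -0.38 in total RNA and 0.28 in 25 to 40 nt RNA for miR-15b-5p. It was 0.44 and -1.26 for miR-15b-3p, and 0.12 and -1.38 for miR-16-2-3p. The Ion Proton log2 fold changes of the 3 were -0.59, -1.11 and -0.69, none past the threshold in edgeR.

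Summed marker miRNAs of other cell types had the same directions as miR-15b-5p in the SOLiD pairs. They were lower in total RNA and higher in 25 to 40 nt RNA. Exceptions among their single markers were miR-144-3p, higher in total RNA (1.91 to 2.22 RPM), and miR-214-3p, lower in 25 to 40 nt RNA (7.97 to 7.67 RPM). Of the 7 myeloid markers only miR-223-3p had these directions (11725 to 4473 RPM and 9577 to 10355 RPM). miR-21a-5p, miR-146a-5p, miR-342-3p and miR-142a-5p were lower in both pairs. miR-142a-3p was higher in both, but from only 1 read in each control library (0.173 to 0.246 RPM and 0.112 to 3.71 RPM). miR-155-5p was higher in total RNA and lower in 25 to 40 nt RNA (999 to 758 RPM). The summed level of 3 of 3 epithelial markers was 2840 and 2244 RPM in total RNA and 2234 and 3212 RPM in 25 to 40 nt RNA, control and withdrawal, against 5.95 to 9.47 CPM in the Ion Proton libraries. The 2 erythroid markers went from 3229 to 2661 RPM and from 2395 to 3991 RPM, and the lymphocyte marker miR-150-5p from 516 to 419 RPM and from 407 to 601 RPM. Stromal markers (5 of 5 above 0) went from 185 to 134 RPM and from 134 to 181 RPM, and 2 endothelial ones from 49.2 to 37.6 RPM and from 41.1 to 49.3 RPM. Their part in the result was not tested.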

How the results depend on the processing

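Of the 6 members other than miR-503-5p, edgeR called 2 lower on Ion Proton counts, 1 with TMM factors from miRNA features, and 1 to 2 with a replicate left out. Over both runs the count was 2, with 0 relative to miRNA reads, 1 with edgeR on counts and recovered reads, and 0 to 3 with a library left out. Over all features these fits gave 0 to 4 lower calls with 1 Ion Proton library left out and 248 and 258 with 1 SOLiD library left out.

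The Ion Proton log2 fold change of miR-322-5p, -0.26, turned to 0.051 with TMM over miRNA features. It passed the threshold at -0.46 with TMM over the other features (adjusted p = 0.0174) and at -0.30 with a minimum of 20 summed counts (edgeR adjusted p = 0.0416), and ranged from -0.36 to -0.22 with a replicate left out. Over both runs it was 0.075 relative to miRNA reads and -0.62 to -0.31 with a library left out. Leaving out either SOLiD library gave the same value, -0.31, which rests on the Ion Proton contrast alone. The limma adjusted p was 0.0488 without the SOLiD withdrawal library and 0.0585 without the SOLiD control library. Of the fits with a library left out, only the former passed the threshold. Relative to miRNA reads the values of miR-16-5p and miR-15b-5p also changed sign, to 0.011 and 0.079. That of miR-195a-5p changed sign to -0.10 when centred on library medians and to -0.052 with a pseudocount of 5. The miR-322 arm ratio kept its sign in all 10 alternatives, between 0.12 and 0.38 with a library left out. These are not 10 separate checks, since without either SOLiD library only the Ion Proton contrast is left. Both of these give 0.12, the same value as the Ion Proton libraries alone and the replicate block. The cause of the changes between settings was not tested.

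Over all features, the Ion Proton run gave 318 higher and 182 lower calls, 413 and 80 with TMM over miRNA features, and 279 and 301 with TMM over the other features, which moved the median log2 fold change of all features by 0.31 and -0.20. Over both runs it gave 198 higher and 96 lower, 296 and 1 relative to miRNA reads (median moved by 0.53), and 178 and 226 when centred on library medians (by -0.30).

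The replicate numbers were not shown to pair libraries, as the correlation of their deviations was -0.03. With a replicate block 2 of the 6 members were called on Ion Proton counts, the log2 fold change of miR-322-5p was -0.26, and 233 higher and 126 lower calls were made over all features. The paired difference of the miR-322 arm ratio was 0.12 in the Ion Proton libraries.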
